A study of Mus musculus with 9 samples.

Results

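Complex I transcripts were followed in the right ventricular myocardium of young mice. The genes were all protein-coding rows of the deposited gene table whose name starts with Nduf: 46 of 54532 rows, and of 22046 protein-coding ones. RNA sequencing covered 9 libraries in 3 groups of 3. All mice were wild type C57BL/6, labelled as postnatal day 7. CsA mice had fistula surgery and an injection of cyclosporin A, an immunosuppressant that binds cyclophilins and inhibits calcineurin. VO mice had fistula surgery, which loads the heart with extra volume, and Sham mice were sham operated. The age at which tissue was taken is not stated, and neither is whether each library is a different mouse. The p-values therefore reflect no more than how far these samples differ, and that spread may be technical.

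Complex I, or NADH:ubiquinone oxidoreductase, is the largest enzyme of the mitochondrial respiratory chain. Its matrix arm takes electrons from NADH in the N module and hands them to ubiquinone in the Q module, and its membrane arm pumps protons. Core subunits carry the catalysis. Accessory subunits, encoded in the nucleus like the core subunits of the matrix arm, build a shell around them, and assembly factors join the modules and are absent from the finished enzyme. Heart muscle makes most of its ATP through the respiratory chain, which matures around birth as the heart turns to fatty acid oxidation. The 46 genes fell into 7 core subunits of the matrix arm, 29 accessory subunits, 8 assembly factors (Ndufaf1 to Ndufaf8) and 2 genes that only keep the name: Ndufa4, a subunit of complex IV, and its paralog Ndufa4l2, which hypoxia induces.

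Promoters of the called members were looked at first, because nuclear respiratory factor 1 (NRF1) is a known activator of respiratory chain genes. RefSeq promoters in GRCm38.p6, taken as the 250 bases before each gene's start, were found for 40 of the 46 genes. The NRF1 core GCATGCGC, searched on both strands, was in the promoters of 4 genes, Ndufaf4, Ndufa11, Ndufa6 and Ndufa8 (10% of those matched, against 5.12% of tested genes with a promoter). The whole NRF1 palindrome, which puts GC before that core and so overlaps it, was in Ndufaf4 and Ndufa11 (5.0%, against 1.92% of tested genes). The sequences shown are those of Ndufaf4 (chr4:24897833-24898082, plus strand) and Ndufb8 (chr19:44555443-44555692, minus strand), the members past the test in VO against Sham, and of Ndufa11 (chr17:56717512-56717761, plus strand), the other holder of the whole site. Capitals mark the NRF1 site and each runs 5′ to 3′.
Ndufaf4: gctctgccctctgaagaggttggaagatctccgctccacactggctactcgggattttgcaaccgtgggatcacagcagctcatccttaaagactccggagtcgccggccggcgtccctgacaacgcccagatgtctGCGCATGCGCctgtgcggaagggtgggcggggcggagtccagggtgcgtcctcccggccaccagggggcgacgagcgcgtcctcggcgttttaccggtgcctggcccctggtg
Ndufb8: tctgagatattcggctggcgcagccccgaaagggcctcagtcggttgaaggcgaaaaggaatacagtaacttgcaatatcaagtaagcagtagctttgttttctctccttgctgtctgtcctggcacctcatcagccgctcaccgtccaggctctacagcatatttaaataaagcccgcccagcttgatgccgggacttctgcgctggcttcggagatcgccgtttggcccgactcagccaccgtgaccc
Ndufa11: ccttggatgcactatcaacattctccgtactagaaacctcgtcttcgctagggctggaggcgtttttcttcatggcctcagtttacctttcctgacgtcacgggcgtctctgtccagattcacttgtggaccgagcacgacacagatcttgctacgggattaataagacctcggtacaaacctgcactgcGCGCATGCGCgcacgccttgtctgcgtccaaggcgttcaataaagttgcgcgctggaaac
Ndufb8 had neither form in this window. A match is a string of letters and not a measured binding site. Ndufaf4 and Ndufa11 both hold the whole site. With all libraries their log2 fold changes in VO against Sham were 0.99 ± 0.18 and -0.33 ± 0.37 in limma, of which that of Ndufaf4 passed, and that of Ndufa11 lay between -0.77 and 0.018 over the 21 settings tried.

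VO 3 stood apart from every other library, so values are given with and without it. Libraries held 12046288 to 15986747 fragments, and VO 3 had 17003 genes above 0, against 19619 to 20479 in the other 8. Mitochondrially encoded transcripts took 11.0% of fragments in VO 3 and 22.2% to 26.3% elsewhere. The summed level of 5 erythroid markers was 2038 FPKM (fragments per kilobase, scaled for depth) in VO 3 and 591 to 1039 FPKM elsewhere. Atrial markers were uneven too: their sum was 2.10 to 145 FPKM in CsA, 6.20 to 13.0 FPKM in VO and 2.43 to 586 FPKM in Sham. Ventricular cardiomyocyte markers were present in all libraries, and all 8 were tested. Their summed level was 14029 to 14715 FPKM in CsA, 10055 to 17195 FPKM in VO and 13355 to 16712 FPKM in Sham. Actc1 alone, at 6492 to 9552 FPKM, made up much of these sums. In VO against Sham 6 of the 8 had a log2 fold change below 0, against 49.6% of tested genes, and 2 above 0. The median of the 8 was -0.42. For 2 of the 8 every VO library lay below every Sham library, against 17% of tested genes. Myh6, the alpha myosin heavy chain and 1 of these 8, was at 905, 1205 and 1088 FPKM in VO, below the 2576, 2048 and 2097 FPKM of Sham, and did not pass (limma adjusted p = 0.0501). In VO against Sham limma called 2 of 6 endothelial markers lower, Plvap and Tie1, and 1 of 4 tested smooth muscle and pericyte markers lower, Myh11 (limma adjusted p = 0.0382, 0.0408 and 0.0427). It called 1 of 6 fibroblast markers higher, Lum (limma adjusted p = 0.0482), and 0 of 5 leukocyte markers. Over all tested genes 2.72% were called lower and 2.04% higher. Of the 6 fibroblast markers, 4 had a log2 fold change above 0 and 2 below 0. GC content is the share of G and C bases in a gene's longest transcript. With a correction for it, the calls of Plvap, Tie1, Myh11 and Lum did not hold (limma adjusted p = 0.167, 0.131, 0.116 and 0.133). Summed endothelial markers were at 385 to 435 FPKM in CsA, 283 to 626 FPKM in VO and 358 to 397 FPKM in Sham. In VO 3 the marker Fabp4 alone was at 456 FPKM. For 4 of the 6 endothelial markers every VO library lay below every Sham library, against 17% of tested genes, and 2 overlapped. Smooth muscle and pericyte markers summed to 688 to 788 FPKM in CsA, 534 to 697 FPKM in VO and 695 to 1009 FPKM in Sham, and fibroblast markers to 689.7 to 769.9 FPKM in CsA, 784 to 862 FPKM in VO and 608 to 759 FPKM in Sham. The adipocyte marker sum was at most 3.97 FPKM. In bulk tissue fewer cells of a type and less RNA per cell cannot be told apart. The part of these differences in the results was not tested.

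Nuclear complex I transcripts split the VO group in opposite directions. The 46 genes together took 0.704%, 0.763% and 0.748% of fragments in CsA 1 to 3, against 0.613%, 0.659% and 1.41% in VO 1 to 3 and 0.791%, 0.799% and 0.737% in Sham 1 to 3. VO 1 and VO 2 were the lowest libraries of the 9 and VO 3 was the highest, while CsA and Sham overlapped. The 7 mitochondrially encoded subunits, mt-Nd1 to mt-Nd6 and mt-Nd4l, ran the other way. They took 11.7%, 10.6% and 9.90% of fragments in CsA, against 10.5%, 10.1% and 4.12% in VO and 8.88%, 9.71% and 9.86% in Sham. VO 3 alone was low.

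**Figure D1:**
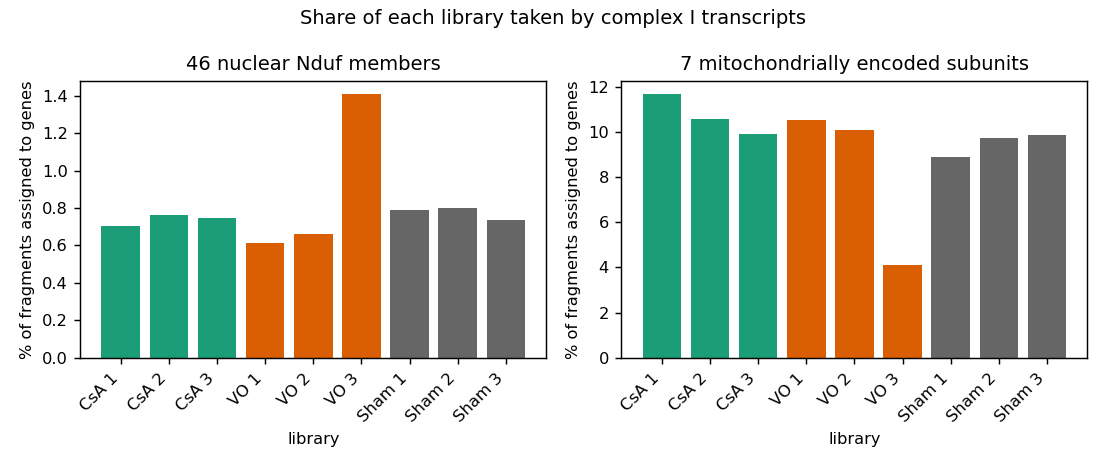
Share of each library's fragments (percent, bars from 0) taken by the 46 nuclear genes on the left and by the 7 mitochondrially encoded subunits on the right, 1 bar per library in the order CsA, VO, Sham. VO 3 is the tallest bar on the left at 1.41% and the shortest on the right at 4.12%.

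Gene by gene the split was as plain. VO 3 had the highest level of the 9 libraries for 34 of 46 genes (73.9%), against 27.3% of all 13477 tested genes. VO 1 had the lowest level for 28 of 46 (60.9%), against 22.7% of tested genes. On the log2(FPKM + 1) scale, the median difference from the Sham mean over the 46 genes was -0.70 in VO 1, -0.35 in VO 2 and 0.68 in VO 3, while in CsA 1 to 3 it was -0.10, 0.005 and -0.06. VO 1 and VO 2 both lay below every Sham library for 29 genes (63.0%, against 27.4% of tested genes), and for 20 of those VO 3 lay above every Sham library (43.5%, against 5.97%). The median coefficient of variation of the 46 genes was 10.8% in CsA, 53.9% in VO and 12.7% in Sham. Ndufa2, an accessory subunit of the matrix arm, was the most variable gene in VO, at 60.1, 80.2 and 449 FPKM, against 148, 128 and 135 FPKM in Sham.

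**Figure D2:**
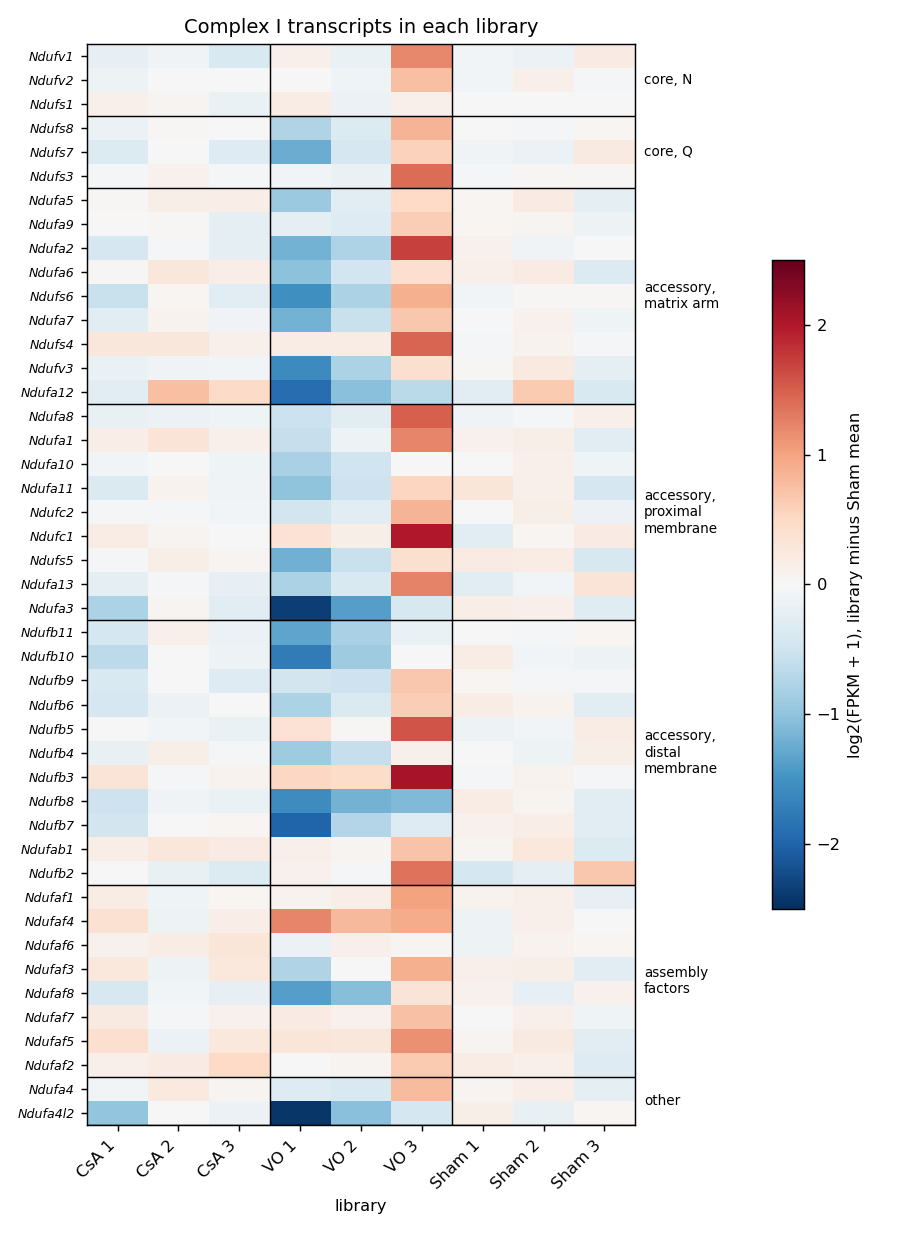
Difference of each library from the Sham mean on the log2(FPKM + 1) scale, with 45 of the 46 genes in rows grouped by role and the 9 libraries in columns (blue lower, red higher). Most rows are blue in VO 1 and VO 2 and red in VO 3, while CsA and Sham columns are mostly pale; the median differences were -0.70, -0.35 and 0.68 in VO 1 to 3.

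A pair of transcripts passed the test with all libraries: Ndufb8 fell and Ndufaf4 rose in VO against Sham. Ndufb8 (ENSMUSG00000025204, chromosome 19, 44548572 to 44555440 in GRCm38) encodes an accessory subunit of the distal membrane arm. It stood at 11.3, 15.1 and 16 FPKM in VO, against 40.3, 37.3 and 29.4 FPKM in Sham, so every VO library lay below every Sham library. The log2 fold change was -1.28 ± 0.20 (SE), with an adjusted p of 0.0382 in limma. Ndufaf4 (ENSMUSG00000028261, chromosome 4, 24898083 to 24905001) encodes an assembly factor that works with Ndufaf3 on the Q module. It stood at 50.1, 37.4 and 40.9 FPKM in VO, against 19.1, 22.9 and 21.1 FPKM in Sham, with no overlap and with VO 3 in the midst of its group. Its log2 fold change was 0.99 ± 0.18 (limma adjusted p = 0.0382). These were the only 2 of the 46 genes past the test, 1 lower and 1 higher, and 4.76% of all tested genes passed (2.72% lower and 2.04% higher), so the share was near the background. At an unadjusted p under 0.05 in limma there were 2 members higher and 7 lower in VO, against 14% and 15.3% of tested genes. Groups did not overlap for 4 higher and 6 lower members, against 16.2% and 17% of tested genes. The median log2 fold change was -0.03, with 23 genes above 0 and 23 below, and 0.003 over all tested genes. Both calls were lost when any 1 of the Sham libraries, VO 1, CsA 1 or CsA 3 was left out of the fit, with limma adjusted p from 0.0502 to 0.183, and after a correction for GC content (-1.37 and 0.66, adjusted p = 0.0662 and 0.0858). The signs held in all 21 alternative settings, with Ndufb8 between -1.48 and -1.14 and Ndufaf4 between 0.59 and 1.11.

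The next members by p did not pass the test. Ndufa3, a small accessory subunit of the proximal membrane arm, stood at 13.8, 27.8 and 55.5 FPKM in VO, against 83.4, 80.8 and 60.3 FPKM in Sham. Ndufa12, which takes the place of the assembly factor Ndufaf2 late in assembly, stood at 8.48, 16.1 and 21.2 FPKM in VO, against 28.2, 55.1 and 26.2 FPKM in Sham. Both had all VO libraries below all Sham libraries, with log2 fold changes of -1.38 ± 0.43 and -1.21 ± 0.40 (limma adjusted p = 0.0760 and 0.0864). Ndufa4l2 stood at 2.64, 8.5 and 13.5 FPKM in VO, against 20.8, 16.2 and 19.3 FPKM in Sham. Ndufb7, an accessory subunit on the intermembrane space side, stood at 7.20, 18.7 and 25.2 FPKM in VO, against 34.4, 35.6 and 26.3 FPKM in Sham. In these 4 genes VO 3 was the VO library closest to Sham. X-linked Ndufb11, a distal membrane arm subunit, stood at 107, 153 and 239 FPKM in VO, against 272, 260 and 277 FPKM in Sham, again without overlap. Ndufb3, a small distal membrane arm subunit, went the other way, at 71.5, 67.9 and 209 FPKM in VO, against 47.9, 52.5 and 47.8 FPKM in Sham. Its log2 fold change of 1.01 ± 0.37 (limma adjusted p = 0.111) was 0.49 ± 0.13 without VO 3.

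**Figure D3:**
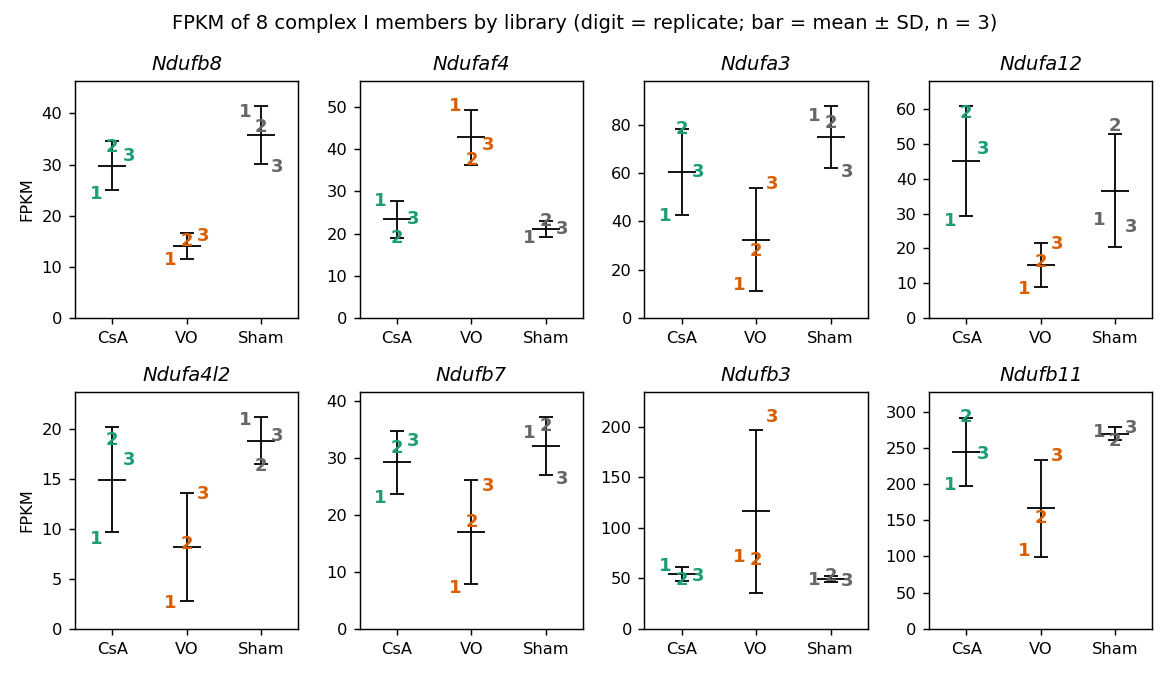
FPKM of the 8 members with the smallest p in VO against Sham, by group (CsA, VO, Sham); each digit is a library's replicate number and the bars are the mean ± SD (n = 3). Ndufb8 is at 11.3 to 16 FPKM and Ndufaf4 at 37.4 to 50.1 FPKM in VO, clear of the other groups, whereas in Ndufa3, Ndufb7 and Ndufb11 the VO 3 digit sits near the other groups.

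Without VO 3, the fit of VO 1 and VO 2 against Sham had 20 of the 46 genes past an adjusted p of 0.05 in limma (43.5%), 18 lower and 2 higher in VO. Over all tested genes 15.1% passed in that fit, 8.1% lower and 6.98% higher. The 46 genes had a median log2 fold change of -0.52, and 34 were below 0. Core subunits of the Q module, which lines the ubiquinone site, had 2 of 4 genes lower, and those of the N module, which oxidises NADH, had 0 of 3. Accessory subunits had 5 of 9 lower in the matrix arm, 3 of 9 in the proximal membrane arm and 6 of 11 in the distal membrane arm, where Ndufb3 was higher. Of 8 assembly factors, Ndufaf8 fell and Ndufaf4 rose, and the other 6 did not pass. Ndufa4l2 was the remaining gene that fell.

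Among the genes lower without VO 3, Ndufaf8, the partner of the assembly factor Ndufaf5, had the smallest p, with -1.22 ± 0.16 on the log2 scale (limma, adjusted p = 0.0309). Its level was low, at 2.41 and 3.25 FPKM in VO 1 and VO 2 (32 and 35 fragments), against 8.55, 6.64 and 8.51 FPKM in Sham (104, 77 and 92 fragments), and VO 3 was at 10.1 FPKM. Ndufa3 had the lowest value, at -1.86 ± 0.33, followed by Ndufa4l2 at -1.74 ± 0.41, Ndufa12 at -1.48 ± 0.41 and Ndufb8 at -1.37 ± 0.20. Ndufb10 (-1.32 ± 0.28), Ndufs5 (-0.88 ± 0.24) and Ndufb7 (-1.37 ± 0.34) were lower as well. Ndufa8, like them an intermembrane space subunit with paired cysteine motifs, had -0.40 without VO 3 and did not pass. With the GC correction added to this fit, limma called 2 members, Ndufaf8 (-0.89 ± 0.12) and Ndufb8 (-1.48 ± 0.20), both lower with an adjusted p of 0.0488, and 0.141% of all genes. The members' median was then -0.35, with 37 of 46 below 0. A group of 2 libraries is all that this fit has for VO, and which of the VO libraries stand for the condition was not tested.

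**Figure D4:**
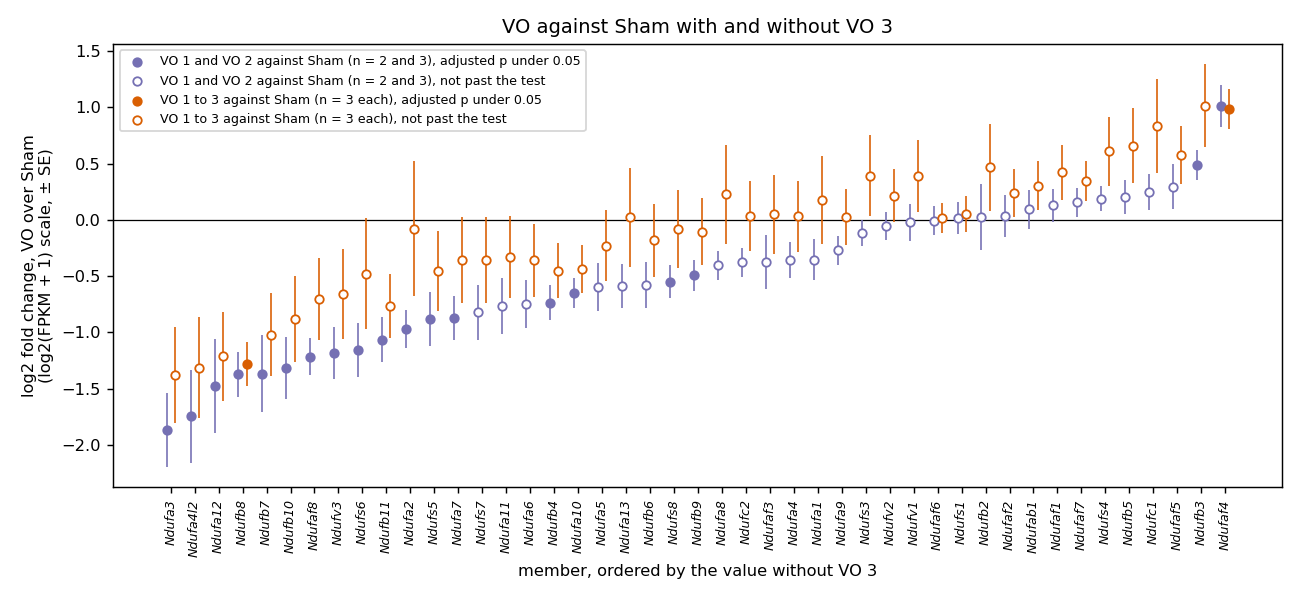
Log2 fold change of VO over Sham (log2(FPKM + 1) scale, bars ± SE) for 45 of the 46 genes, from VO 1 and VO 2 only (purple) and from all VO libraries (orange); filled points have a limma adjusted p under 0.05. With all libraries 2 points are filled, and without VO 3 there are 19, of which 17 lie below 0.

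The core subunits' order by module depended on the fit. Without VO 3 their median log2 fold change in VO against Sham was -0.59 in the Q module and -0.02 in the N module, and with the GC correction added it was -0.28 and -0.17. With all libraries the medians were -0.19 in the Q module and 0.21 in the N module, and with the GC correction 0.10 and -0.05, the other way round. No difference between modules was tested. Ndufs1, the large iron-sulfur subunit, was at 83.3, 80.0 and 68.0 FPKM in CsA, against 86.5, 68.6 and 84.0 FPKM in VO and 75.6, 77.4 and 76.1 FPKM in Sham, and VO 3 was not its highest library. Ndufv1, which binds NADH and FMN, reached 198, 162 and 419 FPKM in VO, against 174, 164 and 211 FPKM in Sham. Ndufv2, its iron-sulfur partner, reached 183, 169 and 307 FPKM in VO, against 173, 199 and 176 FPKM in Sham. In both, VO 1 and VO 2 lay near the Sham range and VO 3 far above it. In the Q module, Ndufs7, which carries the last iron-sulfur cluster before ubiquinone, was at 75.2, 133 and 265 FPKM in VO, against 167, 162 and 209 FPKM in Sham. Ndufs8 was at 115, 153 and 351 FPKM in VO, against 195, 190 and 200.4 FPKM in Sham. Both lay below all Sham libraries in VO 1 and VO 2 and above them in VO 3. Ndufs3 was the member of this module with a fold change above 0 when all libraries were used (0.39 ± 0.36), at 91.8, 84.9 and 255 FPKM in VO, against 92.3, 98.0 and 97.1 FPKM in Sham. None of the 7 core subunits passed the test with all libraries.

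The comparison of CsA with VO asked whether the injected mice differed from mice with the fistula alone. In limma 0 of 46 members and 0% of the 13477 tested genes passed, voom on recovered fragments called 0 genes as well, and 2219 genes had an unadjusted p under 0.05. Of the 46, 4 were higher and 2 lower at that unadjusted level, against 8.64% and 7.82% of tested genes. Ndufb8 stood at 24.3, 33.3 and 31.6 FPKM in CsA, above the 11.3 to 16 FPKM of VO, with 1.02 ± 0.20 on the log2 scale (limma, adjusted p = 0.204). Ndufaf4 stood at 27.7, 19.1 and 23.5 FPKM in CsA, below the 37.4 to 50.1 FPKM of VO, with -0.85 ± 0.18 on the log2 scale (limma, adjusted p = 0.204). Neither overlapped between the groups.

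Ndufa12 was at 28.0, 58.7 and 48.5 FPKM in CsA, above the 8.48 to 21.2 FPKM of VO, and had the largest fold of the 46, 1.52 ± 0.40 on the log2 scale (limma, adjusted p = 0.210). Ndufb3 was at 62.0, 48.4 and 52.5 FPKM in CsA, below the 67.9 to 209 FPKM of VO. Ndufb5, also of the distal membrane arm, was at 63.0, 60.6 and 56.3 FPKM in CsA, against 81.7, 65.0 and 191 FPKM in VO. These 5 were all the members whose groups did not overlap, 2 higher and 3 lower, against 10.9% and 10.3% of tested genes. Ndufa3 overlapped, at 42.4, 78.0 and 60.4 FPKM in CsA, against 13.8, 27.8 and 55.5 FPKM in VO. Ndufb7 (22.9, 31.7 and 33.0 FPKM in CsA) and Ndufb11 (199, 292 and 242 FPKM in CsA) each had only CsA 1 below the VO 3 value. The median log2 fold change over the 46 was 0.04. Without VO 3 it was 0.45, with 36 above 0 and with 24 higher and 2 lower at an unadjusted p under 0.05 in limma, against 12.3% and 10.9% of tested genes, while 0 members and 0.00742% of tested genes passed the adjusted test. Without VO 1 the median was -0.25. No member passed an adjusted p of 0.05 in any of the 21 alternative settings.

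CsA and Sham libraries lay close together for these genes. In limma 0 of 46 members and 0% of tested genes passed, voom called 0 genes, 0 members and 200 of 13477 genes had an unadjusted p under 0.05, and every member's adjusted p was 1. The log2 fold changes ran from -0.37 (Ndufa4l2) to 0.31 (Ndufa12), with a median of -0.05, and Ndufa12 turned to -0.43 without the 3 libraries high in the atrial marker Myl7. Groups did not overlap for 2 members higher in CsA, Ndufaf6 and Ndufs4, and for 2 lower, Ndufa8 among them, against 4.8% and 4.94% of tested genes. Ndufaf6, an assembly factor, had the smallest p, at 10.8, 11.5 and 12.5 FPKM in CsA, against 9.10, 10.7 and 10.3 FPKM in Sham, a difference of 0.19 ± 0.14. Ndufs4, a matrix arm subunit whose loss causes a Leigh-like encephalopathy in mice, was at 63.1, 63.5 and 56.7 FPKM in CsA, against 49.9, 54.8 and 51.0 FPKM in Sham. Ndufa8, an accessory subunit of the proximal membrane arm, was at 169.5, 174 and 177 FPKM in CsA, below the 180.2 to 208 FPKM of Sham. Ndufb9, of the distal membrane arm, was at 70.8, 92.6 and 74.5 FPKM in CsA, against 96.0, 90.9 and 91.5 FPKM in Sham. Ndufa4l2 was at 8.96, 18.8 and 16.9 FPKM in CsA, with CsA 1 below every Sham library. A p that misses the threshold does not show that CsA and Sham were alike, and the SE of these differences ran from 0.14 to 0.60. CsA against VO and VO against Sham share the VO libraries, so their values stand side by side and are not independent of each other: Ndufb8 had 1.02 and -1.28, Ndufaf4 -0.85 and 0.99, and Ndufa12 1.52 and -1.21.

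Among assembly factors, 7 of 8 Ndufaf genes had a log2 fold change above 0 in VO against Sham with all libraries, against 50.4% of all tested genes, and Ndufaf8 was the exception at -0.70 ± 0.37. The median of the 8 was 0.29. Without VO 3 the median was 0.081 with 3 of 8 below 0, and with the GC correction added it was 0.0084 with 4 of 8 below 0. Ndufaf5, which hydroxylates an arginine of Ndufs7, was at 8.77, 8.58 and 16.4 FPKM in VO, above the 7.24, 8.20 and 5.48 FPKM of Sham, and did not pass (limma adjusted p = 0.173). Ndufaf2 was the lowest of the 46 in Sham, at 2.22, 2.39 and 3.20 FPKM in CsA, against 1.94, 2.11 and 3.64 FPKM in VO and 2.37, 2.22 and 1.37 FPKM in Sham. Of 15 assembly factors with other names, Dmac2, a factor for the distal membrane arm, was the 1 that passed: it fell to 6.65, 7.98 and 8.57 FPKM in VO, against 13.0, 11.8 and 13.5 FPKM in Sham (-0.66 ± 0.15, limma adjusted p = 0.0408). Of all tested genes 4.76% passed, and with the GC correction Dmac2 did not (-0.49 ± 0.12, limma adjusted p = 0.0902). Chchd4, which oxidises the cysteine-rich subunits in the intermembrane space, was at 7.23, 5.91 and 14.2 FPKM in VO, against 3.58, 4.54 and 4.21 FPKM in Sham, and did not pass (0.90 ± 0.29, limma adjusted p = 0.0837). In CsA against VO and in CsA against Sham, 0 of these 15 passed.

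Mitochondrially encoded subunits of the membrane arm had 0 of 7 genes past the test in each comparison. All 7 had a log2 fold change below 0 in VO against Sham, and VO 3 was low in most. mt-Nd5 was at 19663, 19303 and 14674 FPKM in CsA, against 16819, 13392 and 2068 FPKM in VO and 15464, 15626 and 15624 FPKM in Sham. mt-Nd4l was at 1374, 1760 and 1426 FPKM in CsA, against 1012, 2270 and 15.2 FPKM in VO and 928, 1571 and 3361 FPKM in Sham. mt-Nd3 was the exception, with VO 3 the highest of its group: 284, 452 and 1011 FPKM in VO, against 350.0, 436 and 1225 FPKM in Sham. In VO 1 and VO 2 the summed level of the 7 was 95432 and 90096 FPKM, within the 78328 to 95626 FPKM of Sham.

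Neighbouring complexes were split by VO 3 as well. Complex II, which is wholly nuclear, had a summed level of 905, 953 and 842 FPKM in CsA, against 992, 837 and 1645 FPKM in VO and 900.3, 932 and 935 FPKM in Sham. The 9 nuclear genes of complex III had 2492, 2853 and 2611 FPKM in CsA, against 1845, 2042 and 4305 FPKM in VO and 2834, 2848 and 2751 FPKM in Sham. In limma 0 of 4 and 0 of 9 genes passed in each comparison. Of 10 regulators of mitochondrial gene expression, Esrra, a nuclear receptor that activates oxidative metabolism genes, fell in VO against Sham: it was at 28.0, 31.2 and 26.6 FPKM in CsA, against 15.5, 24.0 and 21.6 FPKM in VO and 36.7, 34.4 and 33.7 FPKM in Sham (VO against Sham -0.77 ± 0.17, limma adjusted p = 0.0422). It was 1 of 10, against 4.76% of all tested genes, and did not pass with the GC correction (-0.74 ± 0.15, limma adjusted p = 0.0859). VO 3 kept to its group for this gene. Tfam, which packages and transcribes mitochondrial DNA, was at 19.0, 15.2 and 26.3 FPKM in VO, against 9.33, 13.2 and 9.84 FPKM in Sham, and did not pass (0.83 ± 0.23, limma adjusted p = 0.0581). Nrf1 itself was at 1.93, 1.91 and 2.06 FPKM in VO, against 1.63, 1.84 and 2.0 FPKM in Sham.

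Short transcripts prevailed among these genes. The transcript with the longest coding sequence had a median length of 952.5 bases, against 3003 bases over tested genes. GC content, taken from each gene's longest transcript, had a median of 50.1%, against 49.4%. In VO 1 and VO 2 the shorter members lay lower against Sham. Spearman's rho between transcript length and the difference from the Sham mean over the 46 was 0.60 in VO 1, 0.56 in VO 2 and 0.23 in VO 3. Over 11776 tested genes it was 0.23, 0.06 and -0.45. For GC content rho over the 46 was -0.60 (VO 1), -0.56 (VO 2) and -0.31 (VO 3), and over 13465 tested genes -0.68, -0.49 and -0.18. Members with more GC thus lay lower in all VO libraries, like genes at large. All points of a library share its RNA and its preparation, and the part of length and GC in the results was not tested beyond the corrected fits given above.

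**Figure D5:**
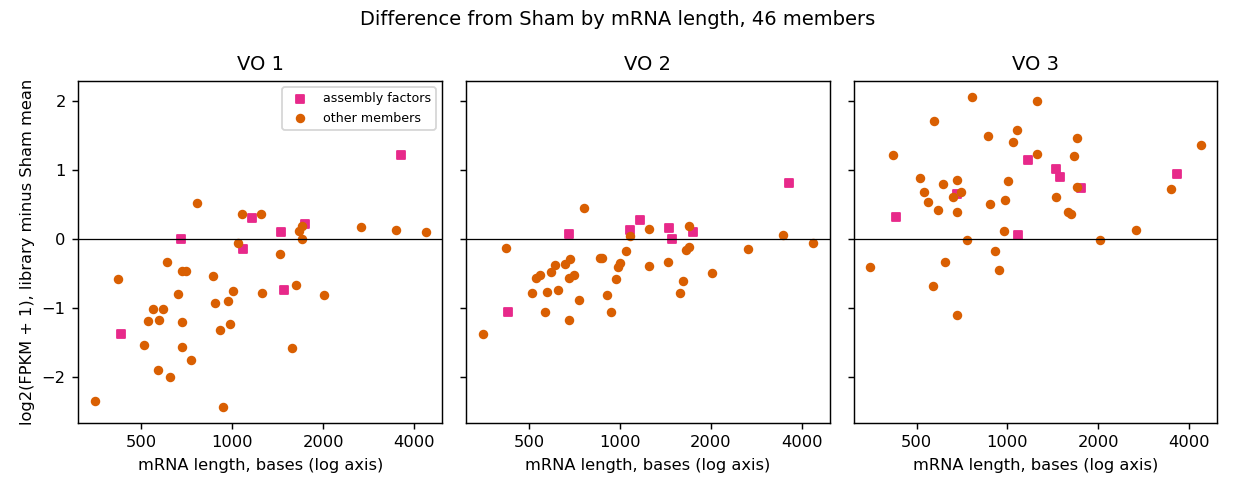
Difference from the Sham mean (log2(FPKM + 1) scale) against the length of the transcript with the longest coding sequence (bases, log axis). The 46 genes are shown in VO 1, VO 2 and VO 3, with assembly factors as squares. Points slope upward in VO 1 and VO 2 (rho 0.60 and 0.56) and scatter in VO 3 (0.23).

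Levels in Sham spanned from Ndufa4 at 339 ± 48.3 FPKM and Ndufb11 at 269 ± 8.8 FPKM down to Ndufaf5 at 6.97 ± 1.38 FPKM, Ndufb2 at 6.46 ± 3.23 FPKM and Ndufaf2 at 1.99 ± 0.538 FPKM (SD, n = 3 each). Ndufa4 and Ndufb11 did not overlap between Sham libraries, whereas Ndufaf5 and Ndufb2 did. Ndufa4 was at 320.2, 397 and 353 FPKM in CsA, against 268, 258 and 586 FPKM in VO and 353, 378 and 285 FPKM in Sham. Ndufb2, of the distal membrane arm, was at 6.08, 5.2 and 4.55 FPKM in CsA, against 6.53, 5.77 and 17 FPKM in VO and 4.18, 5.03 and 10.2 FPKM in Sham. By role, the Sham medians were 187 FPKM for the Q module core, 183 FPKM for the N module core, 126 FPKM for proximal membrane arm, 71.0 FPKM for matrix arm and 51.1 FPKM for distal membrane arm accessory subunits, and 8.60 FPKM for assembly factors. These levels use the authors' gene length, which for some genes far exceeds the transcript: 4522 against 623 bases for Ndufb7, whose Sham rank among the 46 was 35 by FPKM and 11 per transcript length.

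Some members share reads or ground with other genes. Ndufab1, the acyl carrier protein, was at 29.3, 31.9 and 30.4 FPKM in CsA, against 28.6, 27.3 and 43.6 FPKM in VO and 27.5, 31.6 and 20.4 FPKM in Sham. Its processed pseudogene Ndufab1-ps was listed at 161, 169 and 165 FPKM in CsA, against 109, 142 and 210 FPKM in VO and 176, 181 and 43.0 FPKM in Sham, so the split of reads between them, and the values of Ndufab1, are uncertain. Of the 46, 16 overlap another gene with a mean of at least 0.5 FPKM, among them Ndufa3, Ndufb5, Ndufb11, Ndufa4l2, Ndufb2 and Ndufaf2, mostly on the opposite strand. The sources used here do not say whether counting used strand. Ndufb8 and Ndufaf4 overlap no gene at that level. Ndufb8 does share 4260 bases with Gm20538, a protein-coding gene on the same strand listed at 0.0 FPKM. The effect of this overlap on the reads given to Ndufb8 was not tested. X-linked Ndufb11 and Ndufa1 are to be read with the sex transcripts: Sham 2 was the one library with Y-linked Ddx3y above 0, at 18.6 FPKM. In Sham 1 to 3, Ndufb11 was at 272, 260 and 277 FPKM and Ndufa1 at 194, 200 and 151 FPKM. The other sex transcript, Xist, was at 26.4, 0.004 and 23.6 FPKM in Sham 1 to 3. It was at 66.3, 59.2 and 10.2 FPKM in VO and 40.3, 27.5 and 27.8 FPKM in CsA. The part of sex in these values was not tested.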

How the data were processed

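Values are the FPKM that the authors deposited, 1 per gene and library, from Trizol RNA and NEBNext Ultra libraries per the labels. Per the submitters' processing notes, which give no roles, the builds were GRCm38 and mm10 and the tools GATK 3.7, featureCounts 1.5.0-p3, HISAT2 2.0.5, DESeq2 1.20.0 and StringTie 1.3.3b. Strand use and annotation release are not given in the sources used here.

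FPKM are not counts, so limma 3.58.1 (R 4.3.3) was run on log2(FPKM + 1), with a trend, no covariate and all 9 libraries in 1 fit. Genes averaging 0.5 FPKM or more entered (13477 of 54532, all 46 members among them). Benjamini-Hochberg adjustment ran over all of them at 0.05, two-sided. Fold changes on this scale understate low genes. FPKM times gene length gave whole fragments (100% of values within 0.1), used for totals, shares and voom, which called 1011 genes in VO against Sham. Replicates all differed by more than sampling noise. These totals may hold PCR duplicates.

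GC content and transcript length came from GENCODE M21. The loess correction had a span of 0.3 and degree 1. Same-numbered libraries correlated from -0.40 to 0.24 in their deviations from group means, and differently numbered ones from -0.19 to 0.27. With 3 libraries a group, such values cannot decide whether the numbers pair them, and the main fit treats them as unpaired. Alternatives were other pseudocounts, filters, scalings, GC, a replicate block, voom, only the 2 groups compared, and libraries left out. The steps were tested on simulated data that had no GC trend and no library set apart like VO 3. That test does not show how the steps act on data with such features. Members, lists and the rule for genes given per library (past the test, the 8 smallest p per comparison, the 3 highest and 3 lowest in Sham, the core subunits, and exceptions in sign) were chosen with earlier results of these data known. Dmac2, Esrra, Chchd4, Tfam and Nrf1 were picked from their lists for their values or role. Coa1 and protein sequences are not analysed here. The values of 1 member are not reported here, though it enters all counts. Python 3.11.15 and matplotlib 3.10.9 drew the figures.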

Additional observations from a re-analysis of the deposited data

How the results depend on the processing

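In VO against Sham, the count of members past the limma test was 2, and it was 0 with no filter on low values, with the GC correction, with the replicate block, with the replicate block and GC correction together, with only the 2 groups compared, and with CsA 3, Sham 1 and Sham 3 left out, which are high in the atrial marker Myl7. Leaving out 1 library at a time gave 0 to 20: 2 without VO 2 or CsA 2, 20 without VO 3, and 0 without any of the others. Over all tested genes the count was 642 and became 0 with no filter, 0 with GC correction, 1 with the replicate block, 0 with the block and GC correction, 1011 with voom, 0 with only the 2 groups, 3 without the Myl7-high libraries and 19 without VO 3 with GC correction. Leaving out 1 library at a time gave 0 to 2032. The cause was not tested.

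In CsA against VO all genes called were 0, with 1 without VO 3 and GC corrected and 0 to 1 leaving out 1 library. In CsA against Sham they were 0, with 3 without the Myl7-high libraries and 0 to 3 leaving out 1 library. Members called stayed at 0 in both. Without the Myl7-high libraries, where the lone Sham 2 is assumed to vary like the other groups, Ndufab1 turned to -0.044 and Ndufa12 to -0.43 in CsA against Sham, from 0.22 and 0.31 with all libraries. The other members among the 8 with the smallest p in each comparison kept their sign in all 21 settings. The median of CsA against VO lay between -0.25 (without VO 1) and 0.45 (without VO 3). Counting error is largest for members of low level, such as Ndufaf8 with 32 to 145 fragments.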

Other observations

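Other rows named Nduf but not protein coding were 5. Ndufb1-ps, which the table types as a bidirectional promoter lncRNA, was listed at 90.5, 85.8 and 86.9 FPKM in CsA, against 89.8, 86.8 and 287 FPKM in VO and 61.5, 91.1 and 61.8 FPKM in Sham. VO 3 was again the highest library, as in most members. Ndufs6b, a processed pseudogene, was at 5.06, 4.41 and 7.66 FPKM in CsA, against 1.98, 1.56 and 19.5 FPKM in VO and 4.92, 8.47 and 0.665 FPKM in Sham, so it too had VO 1 and VO 2 low and VO 3 high in its group. Ndufb4c stayed between 1.59 and 8.01 FPKM, and Ndufa11b was at most 0.731 FPKM. Reads of these copies cannot be told with certainty from those of their parent genes.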
